A study of Homo sapiens with 6 samples.

Results

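Long noncoding RNAs (lncRNAs) are transcripts that act as RNA rather than through a protein. The 10 lncRNAs described here, NEAT1, MALAT1, H19, HOTAIR, UCA1, TUG1, NORAD, CYTOR, LUCAT1 and DANCR, are all widely studied in cancer, as is PVT1, whose knockdown they were measured under. They were chosen by name, as the rows of the deposited gene table whose symbol equals one of these 10 names. All 10 were among the 59653 genes of the table, and all 10 were among the 19008 genes tested. The RNA came from SK-OV3, an established human ovarian carcinoma cell line labelled wildtype. The 3 siControl libraries were from cells given a pool of scrambled, non-targeting siRNAs, and the 3 siPVT1 libraries were from cells given a pool of siRNAs against human PVT1, all collected at 48 h. The siRNAs lower PVT1 only transiently, and all 6 libraries come from this 1 line. The comparison asks which of the other cancer lncRNAs had different levels once PVT1 was lowered.

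These lncRNAs work in different places. NEAT1 is the scaffold of paraspeckles, nuclear bodies built on its long isoform, and MALAT1 from the adjacent locus collects in nuclear speckles, where splicing factors are stored. NORAD is a cytoplasmic RNA that binds the Pumilio proteins, and HOTAIR and TUG1 have been linked to chromatin-modifying complexes. H19 is the imprinted RNA of the H19 and IGF2 locus and the host of a microRNA. UCA1, DANCR, CYTOR and LUCAT1 were each first described as RNAs that are high in tumours, in progenitor cells or under stress.

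The sequences below carry points that the results return to. The first is a stretch of NORAD, chr20:36049497-36049525 on the minus strand of GRCh38, with the letters TGTANATA bound by Pumilio proteins in capitals, shown because it holds 2 of the motifs for which NORAD is known.
NORAD stretch: tatctgTGTATATAgTGTACATAaaggac
NORAD held 15 matches to TGTANATA on its transcript strand, or 2.78 per kb. HOTAIR held 3, NEAT1 held 6, TUG1 held 2 and LUCAT1 held 1, while MALAT1, H19, UCA1, CYTOR and DANCR held 0. Of 18633 canonical lncRNA transcripts in the annotation, 9.73% held at least 1 match and 4, NORAD itself included, held at least 15.

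The next sequence is a window of 75 bases, the read length of this study, that is the same in CYTOR and in MIR4435-2HG, its near-identical copy elsewhere on chromosome 2. It lies at chr2:87455506-87455580 on the plus strand for CYTOR and at chr2:111494950-111495024 on the minus strand for MIR4435-2HG, and is shown because a read from it cannot be placed in 1 of the 2 genes.
CYTOR and MIR4435-2HG window: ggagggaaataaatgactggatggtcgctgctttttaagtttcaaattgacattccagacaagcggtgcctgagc
Of the 946 windows of this length in the CYTOR transcript, 60.25% also occurred in another gene, nearly all in MIR4435-2HG. The share was 15.66% for NORAD, 4.65% for TUG1 and at most 2.29% for the other lncRNAs.

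Promoters are shown for the member with the largest decrease and for LUCAT1, which had a higher level, as 250 bases before to 50 bases after the RefSeq start on GRCh38.p14. Capitals mark CCAAT on either strand in DANCR, chr4:52712144-52712443 on the plus strand, and TGACNNNGC on the opposite strand in LUCAT1, chr5:91314353-91314652 on the minus strand. CCAAT is the CCAAT box, and TGACNNNGC is the core of the antioxidant response element. The 9 letters marked in LUCAT1 also hold TGAGTCA, the letters bound by AP-1.
DANCR promoter: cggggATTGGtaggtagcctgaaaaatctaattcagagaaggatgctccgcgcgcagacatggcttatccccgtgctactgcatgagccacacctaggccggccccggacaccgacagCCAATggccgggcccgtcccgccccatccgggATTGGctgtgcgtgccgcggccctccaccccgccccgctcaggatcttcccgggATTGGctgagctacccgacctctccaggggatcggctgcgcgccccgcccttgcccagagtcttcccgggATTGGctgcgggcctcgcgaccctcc
LUCAT1 promoter: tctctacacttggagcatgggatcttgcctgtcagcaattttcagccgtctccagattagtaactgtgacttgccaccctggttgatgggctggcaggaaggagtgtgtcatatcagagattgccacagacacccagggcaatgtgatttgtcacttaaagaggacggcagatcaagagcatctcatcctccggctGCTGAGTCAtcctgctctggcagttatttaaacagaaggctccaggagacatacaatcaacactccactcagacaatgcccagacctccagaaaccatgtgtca
The DANCR promoter held 5 CCAAT boxes. Of 35116 RefSeq promoters of the same length, 126 (0.359%) held at least that many and 34.61% held at least 1. TUG1 held 2 and CYTOR held 1. LUCAT1 held 1 match to TGACNNNGC, a motif present in 13.35% of promoters, and MALAT1 held 2 and NORAD 1. The letters ACGTG of the hypoxia response element, present in 21.41% of promoters, occurred in TUG1 and NORAD only as part of 1 E-box each, CACGTG, which reads the same on both strands and which 7.26% of promoters held. RefSeq promoters were matched for MALAT1, H19, TUG1, NORAD, CYTOR, LUCAT1 and DANCR, and those of NEAT1, HOTAIR and UCA1 were not. A match of letters is a description of the sequence only.

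The last pair are the microRNAs cut from H19, shown with the seed, bases 2 to 8, in capitals. They come from the minus strand of chromosome 11, and their seeds differ.
hsa-miR-675-5p: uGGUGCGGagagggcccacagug
hsa-miR-675-3p: cUGUAUGCccucaccgcuca

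The libraries held 28383171 to 35059576 counts. PVT1 itself, the target, had normalized counts (counts scaled to a common library size) of 3298, 4090 and 3377 in siControl and 2350, 2111 and 2062 in siPVT1, so that siPVT1 kept 60.6% of the siControl mean (log2 fold change −0.72, SE 0.10, adjusted p = 0.000342). siPVT1 replicate 3 stood apart from the other siPVT1 libraries. The chi-square per degree of freedom between it and replicates 1 and 2 was 45.3 and 19.6, against 8.62 between those 2. Among siControl libraries it was at most 5.67. There replicate 2 stood apart by less, at 4.97 and 5.67 against replicates 1 and 3, which were at 1.75 to each other. Values without siPVT1 replicate 3 are given below for the lncRNAs that it moved most. The epithelial markers KRT7, KRT8, KRT18, PAX8, ERBB2 and EPCAM were detected in all libraries. Of 9 markers of other cell types, the leukocyte gene CD3E was at 0 throughout, PTPRC, DCN and HBB had at most 2 counts in any library, LUM and ALB had at most 24, and the macrophage marker CD68 had 542 to 800. The endothelial genes PECAM1 and CDH5 were higher in siPVT1, by 2.99 and 2.22 on the log2 scale, and the summed normalized count of the 9 markers was 2640 to 2656 in siControl and 9126 to 11697 in siPVT1. CDH5 made up most of both sums, at a mean of 1998 in siControl and 9315 in siPVT1, while PECAM1 averaged 37.55 and 298.6. The part of these genes in the lncRNA results was not tested.

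DANCR and UCA1 fell and H19 rose after PVT1 siRNA, past both thresholds of the study, an adjusted p under 0.05 and at least a 2-fold change. H19, at 0 to 6 counts in siControl, passed the filter on low values only through siPVT1, the group where it is high, so its call is a weaker result than those of DANCR and UCA1. CYTOR fell and LUCAT1 rose by less than 2-fold, past the adjusted p alone. NEAT1, MALAT1, NORAD, TUG1 and HOTAIR did not pass the adjusted p. So 3 of the 10 lncRNAs passed both thresholds, 1 higher and 2 lower, where 21.5% of all tested genes did, 11.8% higher and 9.64% lower. Among the 1166 tested genes annotated as lncRNA the share was 28.5%, with 134 higher and 198 lower. The adjusted p alone was passed by 5 of the 10, against 57.9% of all tested genes and 48.9% of lncRNAs. Groups did not overlap for 5 of the 10, against 65.6% of all tested genes. These shares are close to the background, and the median log2 fold change of the 10, −0.08, is set beside 0.00 for all genes and −0.12 for lncRNAs. In such bulk RNA, fewer cells of a type and less RNA per cell cannot be told apart.

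**Figure D1:**
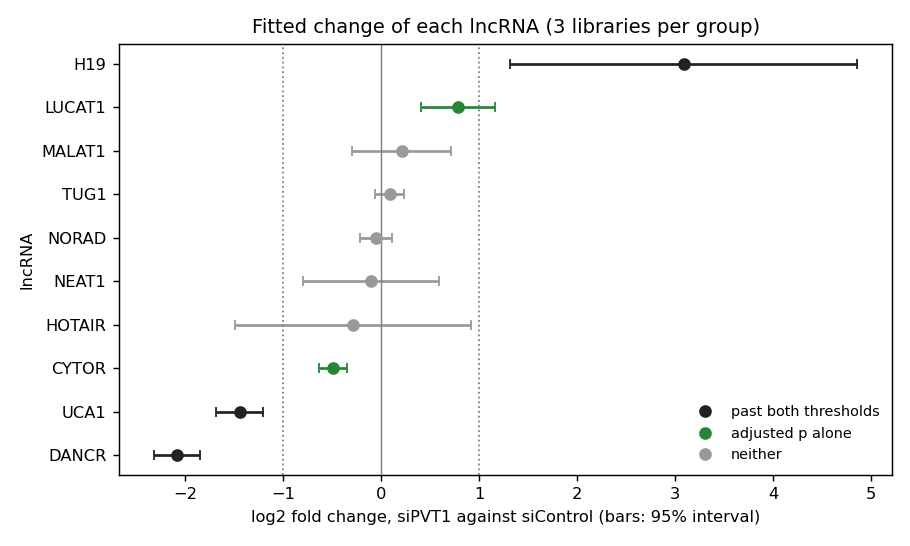
Log2 fold change of each lncRNA between siPVT1 and siControl (points) with its 95% interval (bars), from 3 libraries per group; dotted lines mark a 2-fold change. DANCR and UCA1 lie wholly below −1, H19 lies wholly above 1 with the widest interval, and the intervals of NEAT1, MALAT1, NORAD, TUG1 and HOTAIR include 0.

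On a scale of levels per transcript length (CPM, counts scaled to library size, per kb of the canonical transcript), MALAT1 was highest in siControl at 261 ± 47.7 (SD, n = 3), followed by NORAD at 97.6 ± 1.76, CYTOR at 68.8 ± 1.95 and LUCAT1 at 64.8 ± 3.65. NEAT1 came next at 41.6 ± 4.27, then TUG1 at 34.8 ± 0.466, DANCR at 7.18 ± 0.389 and UCA1 at 6.99 ± 0.181. HOTAIR, at 0.0903 ± 0.037, and H19, at 0.0676 ± 0.0948, were lowest. Neighbours in this order that overlapped between libraries were CYTOR and LUCAT1, DANCR and UCA1, and HOTAIR and H19. In siPVT1 the order became MALAT1, LUCAT1, NORAD, CYTOR, NEAT1, TUG1, UCA1, DANCR, H19 and HOTAIR. There LUCAT1 and NORAD overlapped, as did CYTOR with NEAT1 and NEAT1 with TUG1. These levels and their order depend on the transcript taken. The canonical NEAT1 transcript has 22743 nt and its median annotated one 3300 nt, per kb of which its siControl level was 287, second to MALAT1 at 1391. Per kb of the median transcript DANCR was above UCA1 in both groups, at 29.6 and 13.9 in siControl and 6.98 and 5.09 in siPVT1, and HOTAIR was at 0.382 and 0.303. The table does not separate the isoforms. The 10 lncRNAs took 0.324 to 0.583% of all counts in a library, and MALAT1 with NEAT1 made up 74.0 to 82.8% of that.

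**Figure D2:**
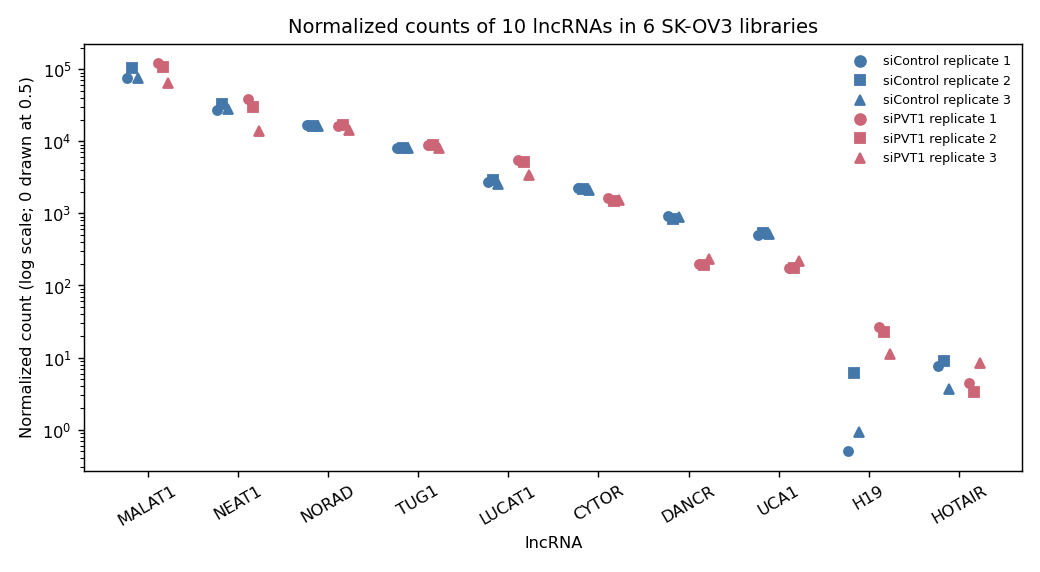
Normalized count (log axis) of the 10 lncRNAs in each of the 3 siControl (blue) and 3 siPVT1 (red) libraries, ordered by level; a count of 0 is drawn at 0.5. The values span from 0 for H19 in siControl replicate 1 to 120615 for MALAT1 in siPVT1 replicate 1, and siPVT1 replicate 3 (red triangles) is the lowest siPVT1 library for MALAT1, NEAT1, NORAD, TUG1, LUCAT1 and H19.

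NEAT1 and MALAT1 lie 52100 bp apart on the plus strand of chromosome 11, NEAT1 at chr11:65422774-65445540 and MALAT1 at chr11:65497640-65508073 (GRCh38). NEAT1 had normalized counts of 27587, 32921 and 27800 in siControl and 38250, 29823 and 13997 in siPVT1. The highest and the lowest of the 6 values were both siPVT1 libraries, and the groups overlapped. Its log2 fold change was −0.11 (SE 0.30, 95% interval −0.80 to 0.59, adjusted p = 0.785), and without siPVT1 replicate 3 it was 0.19 (adjusted p = 0.168).

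MALAT1 had 75708, 102714 and 75995 in siControl and 120615, 108816 and 64933 in siPVT1. Again siPVT1 replicate 3 was the lowest library and siPVT1 replicate 1 the highest. On the log2 scale the difference was 0.21 (SE 0.22, 95% interval −0.30 to 0.72, adjusted p = 0.445). Without siPVT1 replicate 3 it was 0.42, which passed the adjusted p (0.0192).

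The ratio of NEAT1 to MALAT1 counts within a library does not depend on how libraries are scaled. It was 0.364, 0.321 and 0.366 in siControl and 0.317, 0.274 and 0.216 in siPVT1, so the groups did not overlap, with a narrow gap between siControl replicate 2 and siPVT1 replicate 1. The log2 ratio was lower by 0.40 in siPVT1 (difference −0.40, two-sided exact permutation p = 0.1, the smallest that 3 libraries against 3 allow). Without siPVT1 replicate 3 the difference was −0.25.

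Small RNAs that carry no poly(A) tail also varied between these poly(A)-selected libraries. The normalized counts of RN7SL1, RN7SL2, RN7SK, RMRP, RPPH1 and 5_8S_rRNA, 6 RNAs chosen after their values were seen, summed to 211, 2140 and 218 in siControl and 1695, 1061 and 705 in siPVT1. siControl replicate 2 was highest in this sum and, within siControl, in MALAT1 and NEAT1, and within siPVT1 replicate 1 was highest and replicate 3 lowest in the sum, in MALAT1 and in NEAT1. Within siPVT1, RN7SL1 and RN7SL2 carried that order. Within siControl, RN7SL1, RN7SL2, RMRP, RPPH1 and 5_8S_rRNA were all highest in replicate 2. There 5_8S_rRNA was at 801, against 53.5 in siPVT1 replicate 1. RMRP, 5_8S_rRNA and RN7SK were highest in replicate 2 within siPVT1. RPPH1 was lower in siPVT1, past both thresholds, with 15, 29 and 11 counts in siControl and 6, 3 and 0 in siPVT1. RPPH1 thus passed the filter on low values through siControl, the group where it is high. MALAT1 has a 3′ end that is not polyadenylated, and so does the long NEAT1 isoform. The part of poly(A) selection in the MALAT1 and NEAT1 values was not tested.

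**Figure D3:**
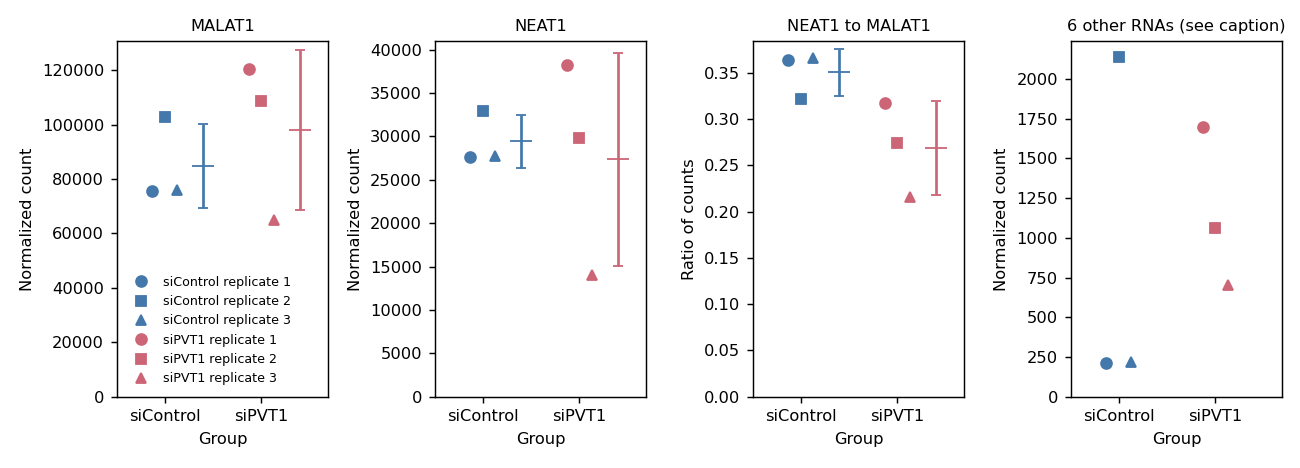
Normalized counts of MALAT1 and NEAT1, the ratio of their counts, and the summed normalized count of 6 RNAs without a poly(A) tail (RN7SL1, RN7SL2, RN7SK, RMRP, RPPH1, 5_8S_rRNA) in each library; bars are mean ± SD of 3 libraries, left out of the last panel. siControl replicate 2 and siPVT1 replicates 1 and 2 are above 100000 for MALAT1 and above 1000 in the last panel.

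For the gene lists that follow, the background is 21.5% of all tested genes past both thresholds and 57.9% past the adjusted p, of which 50.99% were higher, and no list was tested against it. None of the 14 paraspeckle proteins that work with NEAT1 passed both thresholds, and 6 (42.9%) passed the adjusted p, all lower, with a list median of −0.18. SFPQ, one of the core proteins that hold NEAT1, was at −0.52 (SE 0.11, adjusted p = 0.00425) and EWSR1 at −0.60 (SE 0.09, adjusted p = 0.000686). NONO, the partner of SFPQ, was at −0.08 (SE 0.06, adjusted p = 0.289). Of 10 genes of nuclear speckles and MALAT1 processing, none passed both thresholds, and 6 (60.0%) passed the adjusted p, 5 of them lower. The splicing factors SRSF1 and SRSF3 fell by 0.75 (SE 0.17) and 0.53 (SE 0.13) on the log2 scale, as did METTL16, which binds the MALAT1 3′ end, by 0.49 (SE 0.11). SON, a scaffold protein of speckles, rose by 0.35 (SE 0.08).

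NORAD (chr20:36045618-36051018, minus strand, a single exon) had normalized counts of 16670, 16084 and 16457 in siControl and 16381, 16772 and 14310 in siPVT1. The groups overlapped, and siPVT1 replicate 3 was the lowest library. The log2 fold change was −0.05 (SE 0.07, 95% interval −0.22 to 0.11, adjusted p = 0.558), an interval that excludes a 2-fold change in either direction. With libraries scaled by their total count it was −0.20 and passed the adjusted p (0.0357), while the median of all genes was then −0.15.

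Of 7 NORAD partners, none passed both thresholds, and 6 passed the adjusted p (85.7%, beside 57.9% of all tested genes), 2 higher and 4 lower. PUM2, a Pumilio protein that binds the motif printed above, was at 0.05 (SE 0.05, adjusted p = 0.421). PRPF19, a protein of the RBMX-bound complex with TOP1 and CDC5L, fell by 0.84 (SE 0.09), RBMX fell by 0.24 (SE 0.07) and CDC5L by 0.29 (SE 0.08), while TOP1 rose by 0.30 (SE 0.05) and KHDRBS1, the RNA-binding protein SAM68, rose by 0.28 (SE 0.05).

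TUG1 (chr22:30969245-30979395, plus strand) is annotated as protein_coding in GENCODE v44, so it is not among the 9 members counted as lncRNA there. It had 8121, 8176 and 7965 normalized counts in siControl and 9020, 8766 and 7977 in siPVT1. siPVT1 replicate 3 fell inside the siControl range and the other siPVT1 libraries above it. Its fitted log2 difference was 0.09 (SE 0.06, 95% interval −0.06 to 0.23, adjusted p = 0.269). Without siPVT1 replicate 3 it was 0.12 (adjusted p = 0.0402), and with total-count scaling it was −0.06. MORC2, whose gene starts 471 bp from TUG1 on the other strand, was lower in siPVT1 by 0.30 (SE 0.06, adjusted p = 0.00391).

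HOTAIR (chr12:53962308-53974956, minus strand), which lies in the HOXC cluster, was near the floor of detection. It had 8, 9 and 4 counts in siControl and 4, 3 and 9 in siPVT1, and passed the filter on low values through 2 siControl libraries and 1 siPVT1 library. The summed counts gave a ratio of 0.827 (exact 95% interval 0.403 to 1.66, counting error only), and the log2 fold change was −0.29 (SE 0.52, 95% interval −1.49 to 0.91, adjusted p = 0.665). siPVT1 replicate 3 held 9 of the 16 siPVT1 counts, and without it the log2 fold change was −0.80 (adjusted p = 0.283). The 95% intervals of the ratio and of the log2 fold change over all libraries both include a 2-fold decrease, so it was not excluded at this depth. HOXC11, which overlaps HOTAIR on the other strand, had the same counts of 8, 9 and 4 in siControl and 10, 17 and 8 in siPVT1. Strand use in the counting is not given in the sources used here, so reads of the overlap cannot be told apart.

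Of the 18 HOXC and HOXD genes, 15 were tested, 2 passed both thresholds (21.5% of all tested genes did), and 6 (40.0%, beside 57.9%) passed the adjusted p, 3 in each direction, with a list median of 0.27. HOXD11, a homeobox gene of the posterior HOXD cluster, rose by 1.67 (SE 0.41, adjusted p = 0.00777) from 7, 3 and 8 counts in siControl to 14, 14 and 26 in siPVT1. It was at 3.03 normalized counts in siControl replicate 2, so it passed the filter on low values through siPVT1, the group where it is high. HOXD13, at the end of the cluster, fell by 1.14 (SE 0.15, adjusted p = 0.000343). Of the 11 genes of the PRC2 and LSD1 complexes, which have been reported to bind HOTAIR, none passed both thresholds and 4 (36.4%) passed the adjusted p. EZH1, a methyltransferase of PRC2, rose by 0.47 (SE 0.13, adjusted p = 0.0155), RBBP7 by 0.41 (SE 0.07) and the LSD1 partner RCOR1 by 0.46 (SE 0.06). EED, the PRC2 subunit that reads the methyl mark, fell by 0.32 (SE 0.10, adjusted p = 0.0275). EZH2, the main methyltransferase, was at −0.43 (SE 0.18, adjusted p = 0.0667).

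H19 (chr11:1995166-2004552, minus strand) had 0, 6 and 1 counts in siControl and 24, 21 and 12 in siPVT1. All siPVT1 libraries were above all siControl libraries, and H19 passed the filter on low values only because of siPVT1: all 3 of those libraries and 1 siControl library reached 5 normalized counts. The normalized means were 2.33 ± 3.27 (SD, n = 3) in siControl and 20.3 ± 8.05 in siPVT1. The fitted log2 fold change was 3.09 (SE 0.77, 95% interval 1.32 to 4.86, adjusted p = 0.0088). The 57 summed counts in siPVT1 against 7 in siControl gave a ratio of 8.84, with an exact 95% interval of 4.02 to 23.0 that covers counting error only.

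The size of the H19 change rested on siControl replicate 2, which held 6 of the 7 siControl counts: without that library the log2 fold change was 5.09 (adjusted p = 0.00361), and without the other libraries in turn it was 2.51 to 3.37. Tested against a 2-fold change rather than against no change, H19 did not pass (adjusted p = 0.0713). The row of MIR675, the gene of the microRNAs printed above, had 0 counts in all 6 libraries, and reads of 75 bases do not measure mature microRNAs.

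IGF2, the growth factor gene imprinted opposite to H19, lies 124560 bp from it and is the nearest gene on that side in the table. It had 76, 217 and 69 counts in siControl and 254, 262 and 242 in siPVT1, so that siControl replicate 2, the one with most H19, also had most IGF2. Its log2 fold change was 1.17 (SE 0.41, adjusted p = 0.0391), past both thresholds. The call was lost in 4 of 6 fits that left out 1 library, namely siControl replicate 1 (0.91, adjusted p = 0.132), siControl replicate 3 (0.86, adjusted p = 0.118), siPVT1 replicate 1 (1.10, adjusted p = 0.0847) and siPVT1 replicate 2 (1.09, adjusted p = 0.12), and without siControl replicate 2 it was 1.96 (adjusted p = 0.000255). MRPL23, 10644 bp away on the other side, was higher by 0.30 (SE 0.11, adjusted p = 0.0372).

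Of the 11 genes of the H19 and IGF2 axis, 10 were tested, IGF2 passed both thresholds, and 6 passed the adjusted p (60.0%, beside 57.9% of all tested genes), 4 of them higher. The receptor IGF1R rose by 0.46 (SE 0.11), and the IGF2 mRNA-binding proteins IGF2BP2 and IGF2BP3 rose by 0.44 (SE 0.09) and 0.53 (SE 0.05). CTCF, the insulator protein of this locus, fell by 0.35 (SE 0.08), and KHSRP, an RNA-binding protein that H19 binds, fell by 0.77 (SE 0.10). Of 9 genes of microRNA processing, none passed both thresholds and 6 (66.7%) passed the adjusted p. DROSHA, the nuclear nuclease, and XPO5, the export factor, fell by 0.78 (SE 0.11) and 0.68 (SE 0.10). The Argonautes AGO1 and AGO2 rose by 0.20 (SE 0.06) and 0.56 (SE 0.05), and their partners TNRC6A and TNRC6B by 0.29 (SE 0.07) and 0.60 (SE 0.06).

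UCA1 (chr19:15828206-15836328, plus strand), first described in bladder carcinoma, had 503.8, 529.4 and 510.8 normalized counts in siControl and 174.8, 175.9 and 216.1 in siPVT1. The groups were far apart, and siPVT1 replicate 3 was the closest to siControl. Averaged over libraries, siControl stood at 514.6 ± 13.2 (SD, n = 3) and siPVT1 at 189.0 ± 23.5, which is 36.7% of siControl or 2.72-fold lower. In the fit this was a log2 fold change of −1.44 (SE 0.11, 95% interval −1.68 to −1.20, adjusted p = 1.47e-05, exact permutation p = 0.1).

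DANCR (chr4:52712325-52723623, plus strand), known from undifferentiated epidermal cells, had the largest decrease of the 10 lncRNAs. It had 926.6, 832.4 and 894.2 normalized counts in siControl and 199.3, 191.2 and 235.8 in siPVT1. The groups were far apart, again with siPVT1 replicate 3 the closest to siControl. siControl averaged 884.4 ± 47.8 (SD, n = 3) and siPVT1 208.8 ± 23.8, which is 23.6% of siControl or 4.24-fold lower. The log2 fold change was −2.08 (SE 0.10, 95% interval −2.31 to −1.84, adjusted p = 2.49e-06, exact permutation p = 0.1). DANCR hosts the small RNAs MIR4449 and SNORA26, whose rows had 0 counts in all libraries.

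CYTOR (chr2:87454781-87636740, plus strand), a host gene linked to the cytoskeleton and growth, had 2239, 2196 and 2117 normalized counts in siControl and 1644, 1490 and 1532 in siPVT1. The groups did not overlap. The log2 fold change was −0.49 (SE 0.06, 95% interval −0.64 to −0.34, adjusted p = 0.000295), which is short of 2-fold. MIR4435-2HG, which shares the window printed above, had a log2 fold change of −0.48 (SE 0.07, adjusted p = 0.000591). The ratio of CYTOR to MIR4435-2HG counts was 0.565, 0.497 and 0.551 in siControl and 0.56, 0.531 and 0.505 in siPVT1, overlapping throughout (log2 difference −0.01, exact permutation p = 0.9). Because the authors' estimation divides shared reads between the genes, which of the 2 fell is uncertain.

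LUCAT1 (chr5:91054834-91314547, minus strand), first described in smokers' airway cells and induced under stress, had 2753, 2881 and 2574 normalized counts in siControl and 5586, 5122 and 3407 in siPVT1. All siPVT1 libraries were above siControl, replicate 3 by the least. The fitted log2 difference was 0.78 (SE 0.16, 95% interval 0.40 to 1.16, adjusted p = 0.00374), so a 2-fold change lay inside the interval. Without siPVT1 replicate 3 it was 0.95 (adjusted p = 1.17e-06). ADGRV1, an adhesion receptor gene that overlaps LUCAT1 on the other strand, rose by 0.66 (SE 0.15, adjusted p = 0.00518), and reads of the overlap cannot be told apart without strand.

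Of 21 other well-known lncRNAs, 17 were tested, 2 passed both thresholds and 11 (64.7%) passed the adjusted p, 3 higher and 8 lower, with a list median of −0.35. Of all tested lncRNAs 28.5% passed both thresholds and 48.9% the adjusted p, and their median was −0.12. HOTAIRM1, of the HOXA cluster, rose by 1.15 (SE 0.16, adjusted p = 0.000378), and TINCR, an RNA of epidermal differentiation, fell by 2.35 (SE 0.49, adjusted p = 0.0035). TINCR had 16, 31 and 21 counts in siControl and 4, 6 and 2 in siPVT1, so it passed the filter on low values through siControl, the group where it is high. The snoRNA host genes GAS5 and ZFAS1 fell by 0.84 (SE 0.06) and 0.68 (SE 0.08), and CRNDE fell by 0.99 (SE 0.25, adjusted p = 0.01). OIP5-AS1, a cytoplasmic RNA that binds the protein HuR, rose by 0.46 (SE 0.07). MIR4435-2HG is one of the 17. Over all 8 lists, 5 of 93 tested genes (5.38%) passed both thresholds and 54.8% passed the adjusted p, with a median of −0.15, beside 21.5% and 57.9% of all tested genes. The difference from all genes was not tested.

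**Figure D4:**
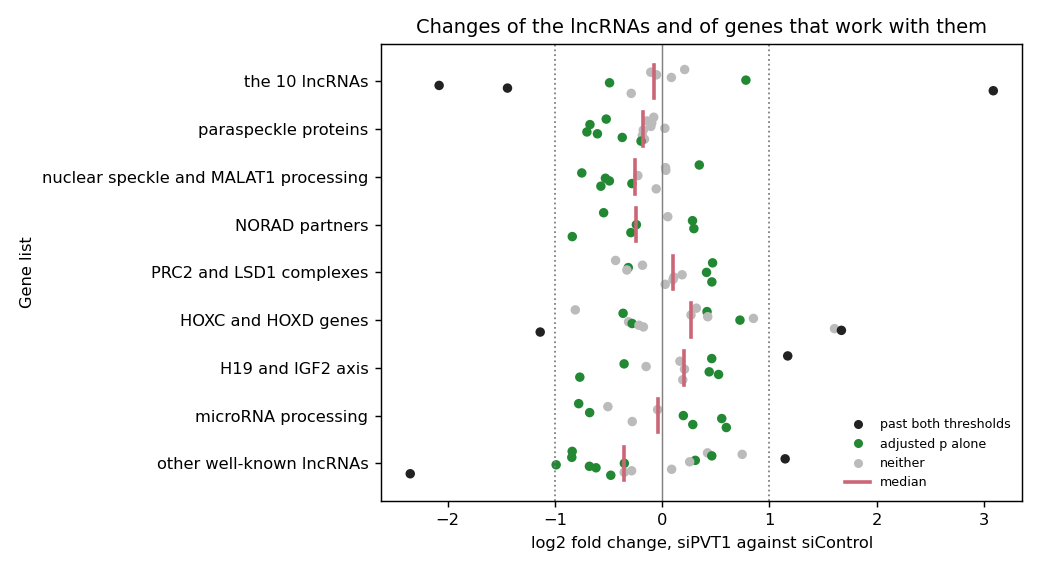
Log2 fold change (x axis) of the 10 lncRNAs and of the tested genes of 8 lists, each point 1 gene coloured by the thresholds it passed, with the median of each list as a bar; dotted lines mark a 2-fold change. Only 5 list genes, HOXD11, HOXD13, IGF2, HOTAIRM1 and TINCR, passed both thresholds, and the list medians lie between −0.35 and 0.27.

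Genes near the lncRNAs were looked at within 100 kb of each. There were 34 distinct tested genes, and 7 passed both thresholds, 5 higher and 2 lower, beside the 21.5% of all tested genes. The 5 higher include ANAPC1P4, which was tested only through siPVT1, the group where it is high. The 7 genes are named here because they passed, so their values were seen first. Next to UCA1, 76039 bp away on the other strand, the cytochrome P450 gene CYP4F11 had 404, 403 and 438 normalized counts in siControl and 47.9, 62.3 and 55.4 in siPVT1. It was the only tested gene within the window of UCA1, and its log2 fold change was −2.91 (SE 0.12). Next to DANCR, 50657 bp away on the same strand, USP46-DT fell by 1.42 (SE 0.28, adjusted p = 0.00253), and the deubiquitinase gene USP46, 53024 bp away, fell by 0.61 (SE 0.06).

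The neighbours of the other lncRNAs that passed were all higher. ARRDC3, an arrestin-related gene 54084 bp from LUCAT1 on the same strand, had 2038, 1911 and 1976 normalized counts in siControl and 13212, 10557 and 6717 in siPVT1. Its log2 fold change was 2.36 (SE 0.22, adjusted p = 4.5e-05). The siPVT1 libraries were in the same order as for LUCAT1. MALAT1, NEAT1, TUG1, H19 and LTBP3 had that order too, so it is not particular to this pair. LTBP3, a carrier of latent TGF-beta 30486 bp from MALAT1 and also within the window of NEAT1, had 437, 406 and 402 normalized counts in siControl and 1353, 1257 and 915 in siPVT1 (log2 SE 0.14, adjusted p = 5.5e-05). EHBP1L1, 67973 bp from MALAT1, rose by 1.55 (SE 0.07). EPB41L1, a gene of a membrane skeleton protein 40486 bp from NORAD, rose by 2.04 (SE 0.09). The pseudogene ANAPC1P4, 64244 bp from CYTOR, had 0 counts in each siControl library and 14, 27 and 6 in siPVT1, so it was tested only through the group where it is high, and its call is a comparison with a count of 0. No tested gene within the window of HOTAIR, TUG1 or H19 passed both thresholds, and FRMD8, the nearest tested gene on one side of NEAT1, was at −0.07 (SE 0.07, adjusted p = 0.417).

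**Figure D5:**
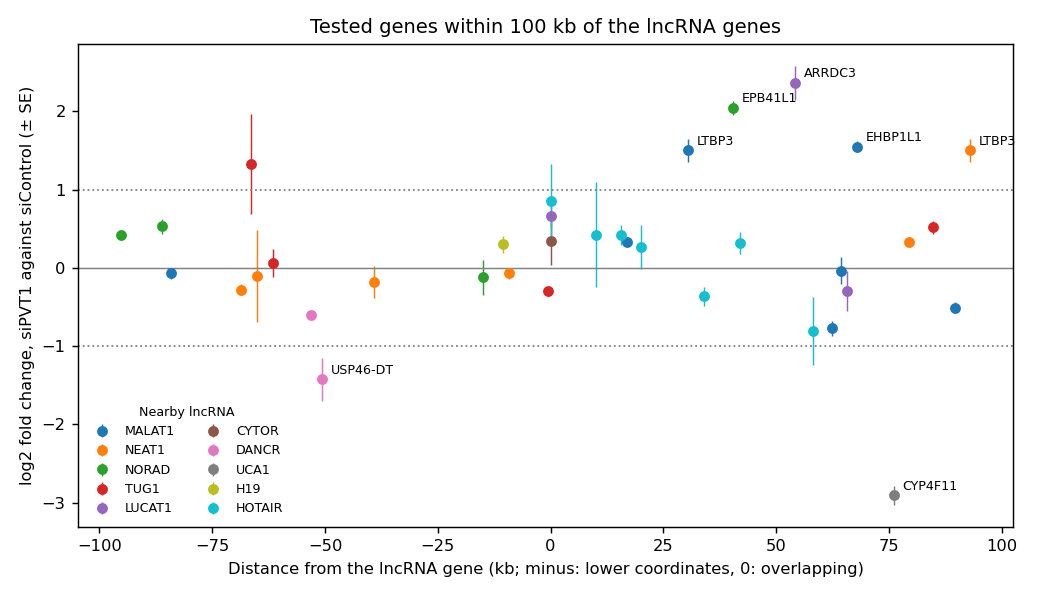
Log2 fold change (± SE) of tested genes against their distance from the lncRNA gene in kb, coloured by the lncRNA; dotted lines mark a 2-fold change, and genes at 0 counts in siControl are left out. CYP4F11 near UCA1 lies at −2.91, and ARRDC3 near LUCAT1 and EPB41L1 near NORAD lie above 2.

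The genes most like each lncRNA that passed both thresholds were taken as the 2 with the smallest root mean square distance of centred log2 values over the 6 libraries, which is a description of likeness only. For UCA1 they were TGFBRAP1, which binds TGF-beta receptors, at a distance of 0.036 and DESI1 at 0.0459. For DANCR they were GCLC, the catalytic subunit of the enzyme that starts glutathione synthesis, at 0.0613 and GPAT3, an acyltransferase of lipid synthesis, at 0.0687. GCLC had 2482, 2359 and 2532 normalized counts in siControl and 533.4, 581.3 and 674.6 in siPVT1, a log2 fold change of −2.04 (SE 0.09) beside the −2.08 of DANCR. For H19 they were FCGRT, the neonatal Fc receptor, at 0.243 and TLE2, a corepressor, at 0.27. Both had more counts in siControl replicate 2 than in the other siControl libraries, as H19 had. The counts were 34 against 8 and 17 for FCGRT and 15 against 2 and 4 for TLE2. Both genes were chosen for likeness to H19 over these same libraries, so this shared pattern follows from the choice. TLE2, like H19, passed the filter on low values only through siPVT1, the group where it is high.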

How the data were processed

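Poly(A) RNA libraries (KAPA mRNA HyperPrep) of 3 siControl and 3 siPVT1 samples were sequenced as 75-base single reads. Per the labels and the study's methods, the authors aligned with STAR 2.7.3a to GRCh38.p13 (GENCODE v35), quantified with Salmon 0.14.1 and deposited the estimated counts of each gene symbol, rounded and not normalized; the strand setting is not given in the sources used here. Estimated counts split shared reads between genes. All columns were matched to samples by their labels, which do not say whether replicates were separate cultures, so p-values measure only the spread between these samples.

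From these, the quasi-likelihood test of edgeR 4.0.16 in R 4.3.3 was applied with TMM scaling to genes that reached 5 normalized counts in 3 or more libraries, with Benjamini-Hochberg adjustment over 19008 genes. Normalized counts are counts divided by effective library size relative to its mean. The standard error is the absolute log2 fold change over the square root of F. Alternatives were DESeq2 1.42.0, other scalings, filters and thresholds, a replicate block and leaving out each library. Intervals on counts cover counting error only. The tests were tested on simulated data. Coordinates and transcripts are from GENCODE v44 (GRCh38), and promoters and microRNAs from RefSeq (GRCh38.p14). Genes were named by rule: the 10 lncRNAs, PVT1, MIR4435-2HG, nearest neighbours, list members and the 2 genes most alike. The lncRNAs and gene lists were chosen with earlier results of these data known. The results for 2 list genes are not reported here.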

Additional observations from a re-analysis of the deposited data

How the results depend on the processing

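DANCR and UCA1 were called in all 14 alternatives, with −2.19 to −2.03 and −1.57 to −1.40 when 1 library was left out. H19 was called in 13, the exception being the test against a 2-fold change (3.09, adjusted p = 0.0713). Neither that test nor the adjusted p alone applied both thresholds. The adjusted p alone reused the main fit, so every gene called in the main fit passed it by construction. Of 195 values recomputed, 182 were scored as unchanged, but some of them could not change. The adjusted p alone and the test against a 2-fold change kept the main log2 fold changes. Values scored as unchanged could still cross the adjusted p, as MALAT1 (0.0192) and TUG1 (0.0402) did without siPVT1 replicate 3. NORAD (0.0357) did so with total-count scaling. The test against a 2-fold change called 1976 genes and 1 gene of the partner lists, against 4081 and 5 in the main fit. The adjusted p alone called 11007 genes, 5 of the 10 lncRNAs (adding CYTOR at −0.49 and LUCAT1 at 0.78) and 51 list genes. Leaving out 1 library moved NEAT1 between −0.44 and 0.19 and the log2 ratio of CYTOR to MIR4435-2HG between −0.070 and 0.023, both changing sign; the cause was not tested. Scaling by the total count put TUG1 at −0.063 and moved the median of all genes from 0.00 to −0.15, and the share of called genes that were higher from 55.08% to 43.79%; relative to that median TUG1 remained slightly higher. HOTAIR did not pass the filterByExpr filter, so it has 13 alternatives. At 0 to 24 counts per library, depth limits H19 and HOTAIR. With the replicate number as a block (replicate block), 3924 genes and the 3 lncRNAs were called. Deviations of same-numbered samples correlated at −0.041, 0.038 and 0.004, all under 0.1. The labels do not say whether same-numbered samples were made together, and correlations over so few libraries cannot settle it.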
